A study of Mus musculus with 18 samples.

Results

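A set of 40 genes of mitosis and the G2-M transition was followed in J774.1 cells, a mouse macrophage line, out of 18204 genes measured. The members are a list of gene symbols that covers mitotic cyclins and kinases, the spindle checkpoint, the kinetochore, spindle motors and cytokinesis, and all 40 were present in the table and passed the filter on low values. Wildtype and Ctbp1/2dKO (dKO) cells were treated for 4 h with vehicle (PBS/DMSO), 1.5 mM MTOB or 0.25 mM 4-Cl-HIPP, with 3 libraries in each of the 6 groups. CTBP1 and CTBP2 are transcriptional co-repressors with a dehydrogenase domain. MTOB is a keto acid that occupies its substrate pocket, and 4-Cl-HIPP is an oxime acid with a chlorinated phenyl ring. The comparisons ask whether the inhibitors change the transcripts of dividing cells and whether they do so when CTBPs are lost. Each genotype had 1 vehicle group for both inhibitors. The dKO cells were made with Cas9 and grown out from single cells, the number of clones behind the replicates is not given in the sources used here, and genotype and clone cannot be told apart.

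Cells build up mitotic transcripts in late S phase and G2 and clear most of them after division, so in an unsynchronised culture their level follows how many cells are close to mitosis. Cyclin B with CDK1 starts mitosis, PLK1 and the Aurora kinases build the spindle, the checkpoint holds CDC20 back until kinetochores are attached, and the anaphase-promoting complex then marks cyclins and securin for destruction. Many of these genes are repressed in resting cells by the DREAM complex and activated in G2 by MYBL2 and FOXM1, through promoters that carry a cell cycle homology region (CHR) and CCAAT boxes bound by NF-Y.

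Promoters of 6 members are shown as examples of these motifs. Cdk1, Cdc20, Top2a and Ube2c hold CHR letters. Ccnb1 holds CCAAT boxes without CHR letters, and Nuf2, which fell clearly with MTOB, holds neither. Each line gives the 150 bases before the annotated start (RefSeq, GRCm38.p6), 5′ to 3′ on the gene's strand, with CHR letters (TTTGAA or TTCGAA) and CCAAT, or their reverse complements, in capitals.
Cdk1 (chr10:69352913-69353062, minus strand): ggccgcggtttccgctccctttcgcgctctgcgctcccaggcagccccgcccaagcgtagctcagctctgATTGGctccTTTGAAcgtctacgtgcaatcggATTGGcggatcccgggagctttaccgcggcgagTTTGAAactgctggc
Cdc20 (chr4:118437344-118437493, minus strand): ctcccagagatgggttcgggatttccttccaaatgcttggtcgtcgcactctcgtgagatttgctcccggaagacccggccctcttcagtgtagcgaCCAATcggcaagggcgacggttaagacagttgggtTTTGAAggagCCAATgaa
Top2a (chr11:99024190-99024339, minus strand): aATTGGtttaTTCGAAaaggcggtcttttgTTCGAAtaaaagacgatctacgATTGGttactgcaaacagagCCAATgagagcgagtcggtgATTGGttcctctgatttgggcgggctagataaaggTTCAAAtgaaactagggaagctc
Ube2c (chr2:164769779-164769928, plus strand): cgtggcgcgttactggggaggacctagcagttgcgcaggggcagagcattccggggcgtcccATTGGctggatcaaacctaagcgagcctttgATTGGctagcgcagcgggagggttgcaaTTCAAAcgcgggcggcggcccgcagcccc
Ccnb1 (chr13:100786487-100786636, minus strand): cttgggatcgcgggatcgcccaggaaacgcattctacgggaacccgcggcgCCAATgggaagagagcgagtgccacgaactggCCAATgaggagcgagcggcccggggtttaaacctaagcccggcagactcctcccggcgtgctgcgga
Nuf2 (chr1:169531465-169531614, minus strand): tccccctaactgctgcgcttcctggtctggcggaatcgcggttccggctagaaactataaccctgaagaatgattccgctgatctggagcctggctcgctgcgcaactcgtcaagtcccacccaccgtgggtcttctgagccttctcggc

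RefSeq promoters were matched for 33 of the 40 members, with 36 promoters between them. Bub3, Ect2 and Prc1 each had 2 promoters that overlap, so some of their motif sites were counted in both. Within 250 bases before the start and on both strands, CHR letters stood in 15 of the 36 (41.7%), against 17.1% of all 32851 promoters of that length. CCAAT stood in 27 of the 36 (75%) against 33.8%, and 18 (50%) held it at least 2 times against 10.1%. Both motifs stood together in 14 (38.9%) against 6.02%. The motifs were counted separately and may share a base where they abut, and a match describes the letters only. In the GRCm39 build used for the expression values, Cdk1 lies at chr10:69170976-69236595, Ccnb1 at chr13:100915153-100923116, Plk1 at chr7:121758646-121769108, Mki67 at chr7:135291513-135318299, Foxm1 at chr6:128339518-128353147 and Top2a at chr11:98883769-98915062.

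Transcripts of the targeted genes and of cell type markers were looked at first. Ctbp1 lay at 170.1 to 238.4 TPM in the 9 wildtype libraries and at 19.66 to 31.47 TPM in the 9 dKO libraries, and Ctbp2 at 87.78 to 96.86 against 68.5 to 81.94 TPM. Both targeted transcripts were lower in every dKO library, Ctbp1 by a log2 fold change of -3.07 and Ctbp2 by -0.28 under vehicle (limma adjusted p = 1.61e-10 and 0.00427). The paper reports STOP and frameshift mutations in both genes and loss of both proteins on western blot. Transcript levels do not measure that loss, and much Ctbp2 RNA remained in dKO cells. All 12 macrophage markers were listed and summed to 3090 to 4170 TPM per library, but unevenly. Csf1r lay at 612 to 942 and Cd68 at 542 to 703 TPM, while Adgre1 ranged from 6.7 to 107 and Cd14 from 91.6 to 857 TPM. Fcgr3 (1.38 to 4.41 TPM) and Aif1 (1.62 to 10.2 TPM) were about as low as the T cell marker Lck (0.58 to 7.01 TPM). The 2 of 5 T cell markers with a row summed to at most 7.01 TPM. The 2 of 4 B cell markers summed to at most 0.824, the 1 of 5 fibroblast markers to 1.05 and the 1 of 4 epithelial markers to 0.295 TPM. The macrophage sum itself was highest in wildtype MTOB (3960 to 4170 TPM, against 3460 to 3550 in wildtype vehicle), and its part in the results was not tested. The first dKO MTOB library stood apart, with 7.04% of its TPM in mitochondrial transcripts against 8.98% to 10.3% in the other 17, so counts that use it are also given without it. Sequencing depth is unknown because TPM, a transcript's share of its library scaled for length, keep no read totals. The replicates are described only as biological triplicates. Library numbers in the labels run through the treatments by replicate number, all wildtype before all dKO, and what this order reflects is not stated.

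The members were abundant in every group. Summed over the 40 genes, wildtype vehicle held 5361 ± 24.8 TPM (SD, n = 3), wildtype 4-Cl-HIPP 5253 ± 35.5, wildtype MTOB 4501 ± 26.5, dKO vehicle 4816 ± 29.9, dKO 4-Cl-HIPP 4824 ± 71.3 and dKO MTOB 4060 ± 99.8 TPM (each SD, n = 3). The 3 MTOB libraries of each genotype lay below all others of that genotype, and each dKO group lay below its wildtype counterpart without overlap. The sum changed by -16% with MTOB in wildtype and by -15.7% in dKO (-14.5% without the first dKO MTOB library), and differed by -10.2% between the genotypes under vehicle. Against wildtype vehicle, dKO MTOB stood at -24.3%. In a bulk sample, fewer cells in G2 and mitosis and less RNA per such cell cannot be told apart.

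**Figure D1:**
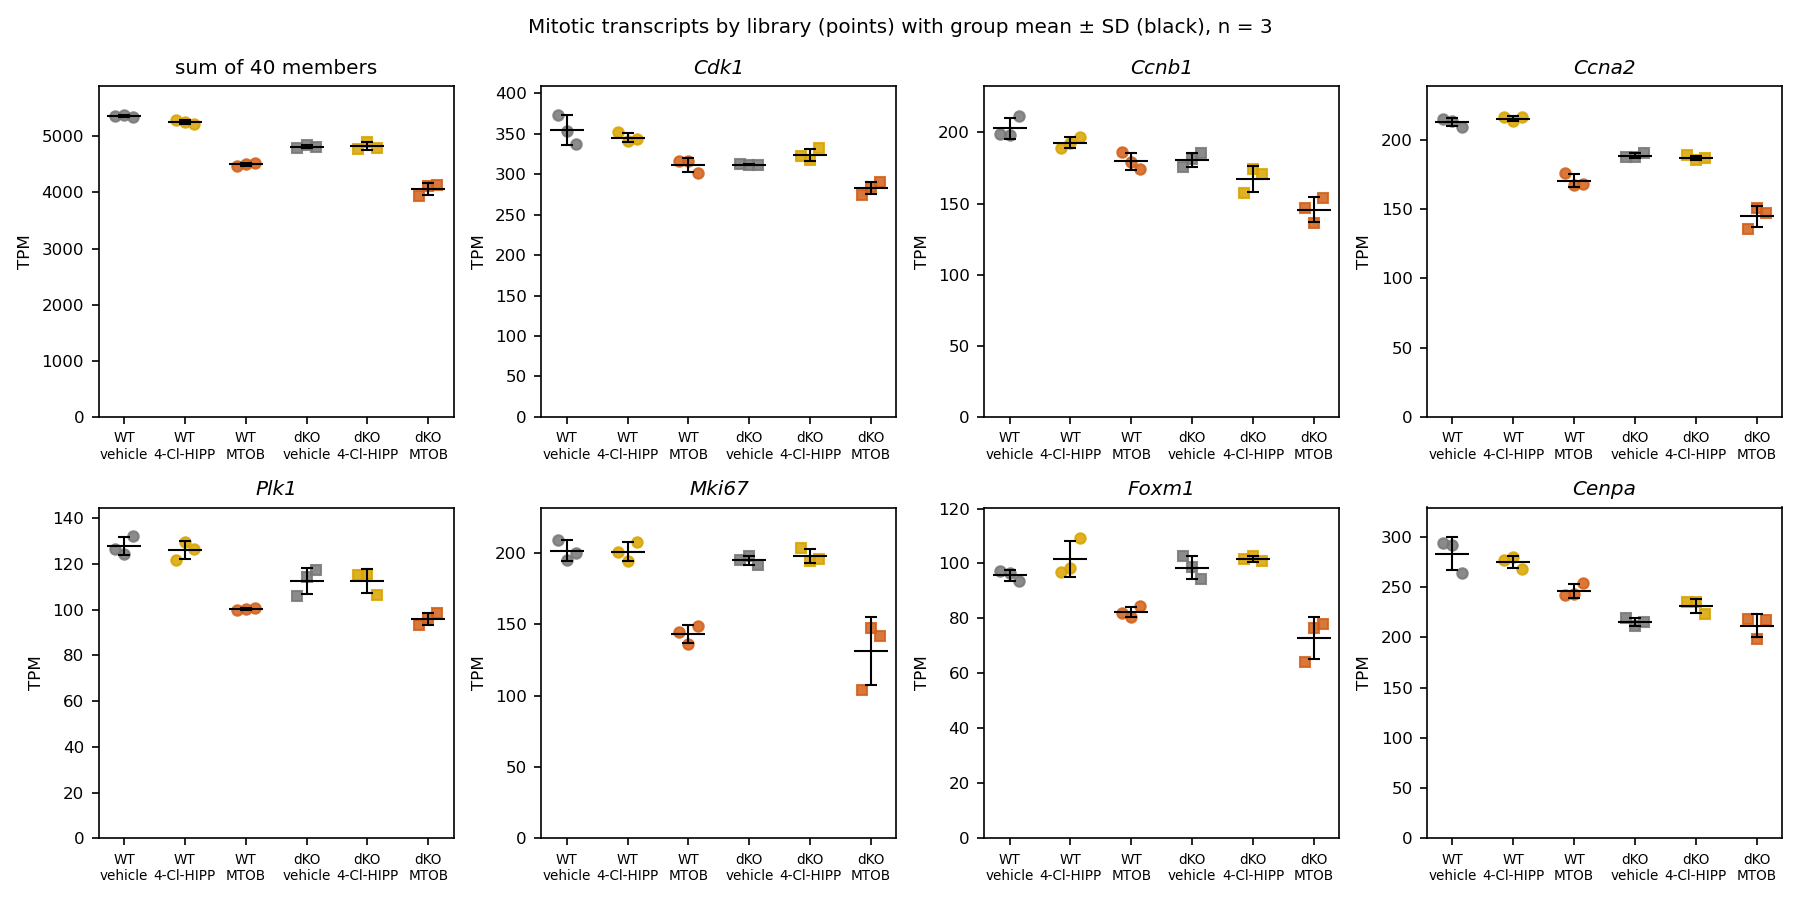
Levels in TPM by library (points), with the group mean and SD (black, n = 3), for the sum of the 40 members and for 7 of them, in wildtype (WT, circles) and dKO (squares). MTOB libraries (orange) lie lowest within each genotype in the sum, at 4472 to 4524 TPM in wildtype and 3945 to 4127 TPM in dKO.

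Among single members, TPM being per length, Cdk1 (mean over libraries 321.8 TPM), Top2a (285.3 TPM) and Ube2c (267.2 TPM) were highest. Sgo1, which protects centromeric cohesion, had the lowest mean (20.94 TPM), followed by Bub1 (35.03 TPM) and Ndc80 (36.81 TPM). The 5 highest members made up 28.3% of the summed level. In 34 of the 40 genes the lowest group mean was that of dKO MTOB, in 5 it was wildtype MTOB (Bub1, Dlgap5, Mad2l1, Ndc80 and Pttg1) and for Cenpf it was dKO vehicle.

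**Figure D2:**
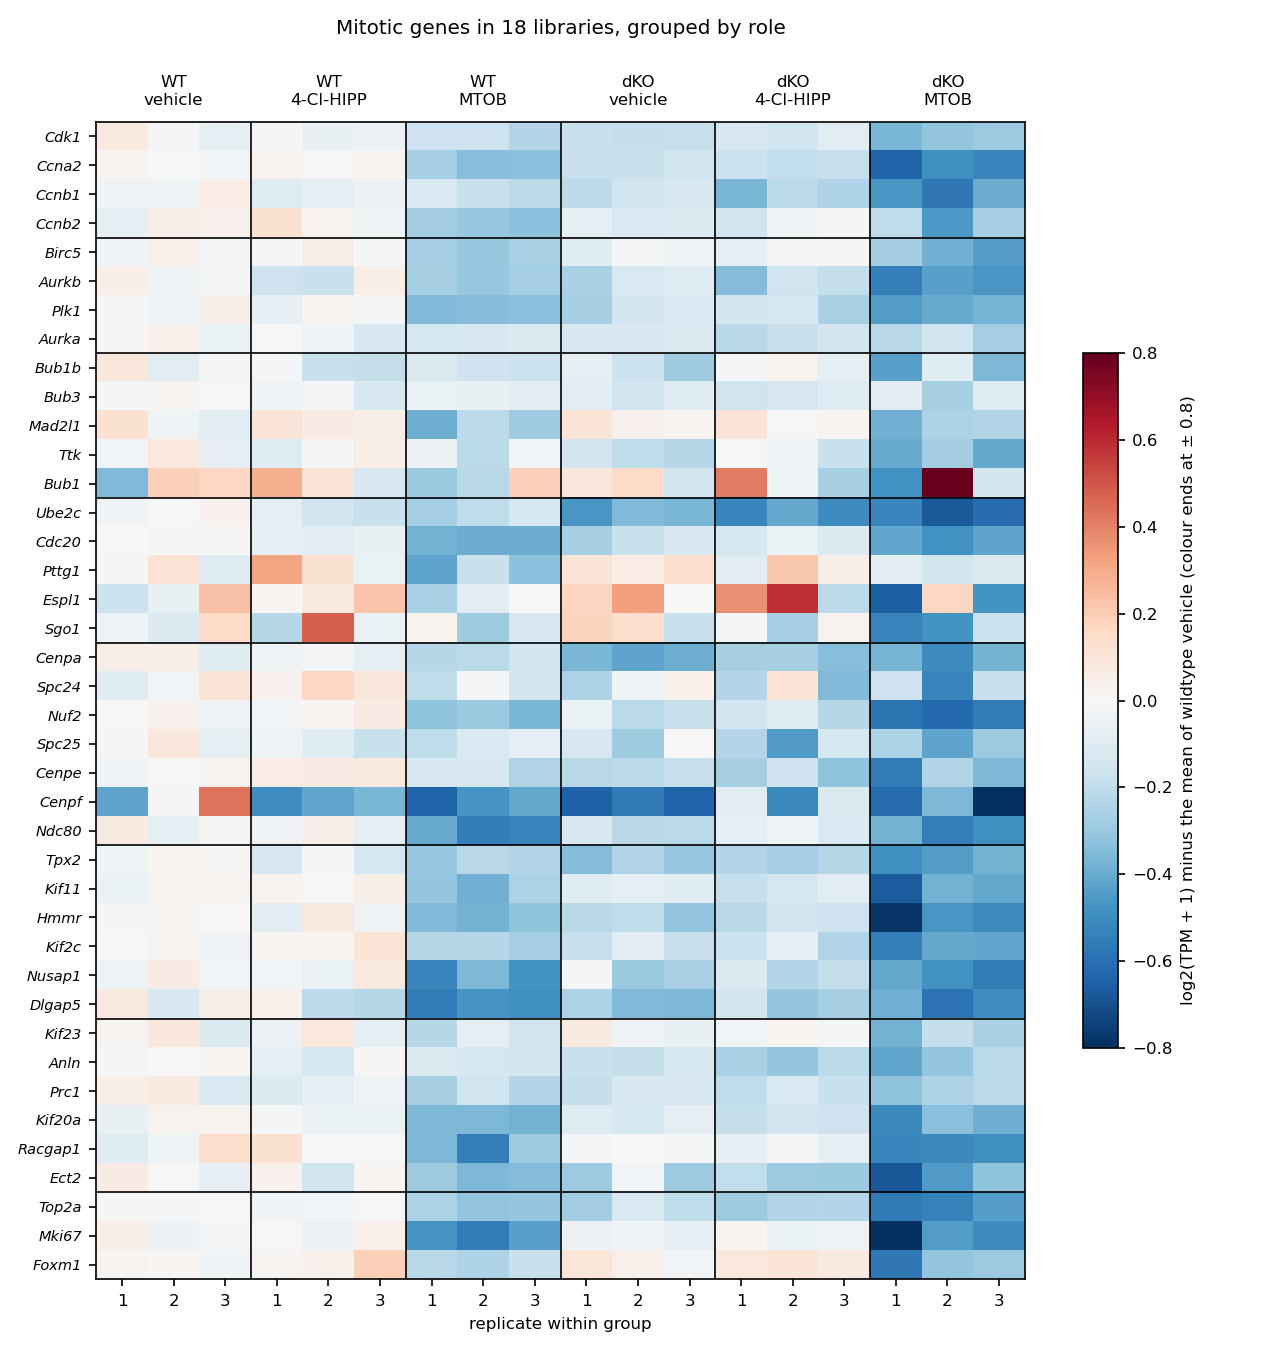
Each row is a member and each column a library, and the colour gives log2(TPM + 1) minus the mean of the 3 wildtype vehicle libraries, with members grouped by role. The MTOB columns of both genotypes are mostly blue, the 4-Cl-HIPP columns resemble vehicle of the same genotype, and Bub1, Espl1, Sgo1 and Cenpf vary most within groups.

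In wildtype cells, MTOB lowered mitotic transcripts by modest amounts and across nearly all roles. Of the 40 members, 25 fell and 0 rose at an adjusted p below 0.05 (limma on log2(TPM + 1), Benjamini-Hochberg over 16383 genes), while 3.46% of all genes tested fell. All 40 had a lower estimate, with a median log2 fold change of -0.27 against -0.0057 over all genes. In 32 members the 3 MTOB libraries lay below all 3 vehicle libraries, against 12% of all genes. No member also passed a fold change of 1.5, against 0.452% of all genes that fell that far: the changes of those that passed lay between -11.4% (Ccnb1) and -29.6% (Dlgap5).

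All 4 genes of the mitotic cyclins and their kinase fell with MTOB in wildtype. Cdk1, the kinase that drives entry into mitosis, had 373.9, 353 and 337.8 TPM with vehicle and 316.2, 316 and 301.4 TPM with MTOB. The groups did not overlap, and the log2 fold change was -0.19 (SE 0.039, limma adjusted p = 0.00726). Ccna2, the cyclin of S phase and G2, had 215.1, 213.4 and 209.4 TPM with vehicle and 175.8, 167.7 and 168.2 TPM with MTOB. All MTOB libraries were well below vehicle, a log2 fold change of -0.32 (SE 0.035, limma adjusted p = 2.75e-05), though 17.5% of its exon bases overlap Exosc9 on the other strand, which the unstranded libraries cannot separate. Ccnb1, the major mitotic cyclin, had 199, 198.5 and 211.7 TPM with vehicle and 186.3, 178.9 and 174.3 TPM with MTOB. This fall was the smallest that passed, at a log2 fold change of -0.17 (SE 0.049, limma adjusted p = 0.0439), and it did not pass when any of the 6 libraries was left out (adjusted p from 0.05002 to 0.173). Ccnb2 fell by 0.30 on the log2 scale (limma adjusted p = 0.00797). Ccnb1 and Ccnb2 each have a named pseudogene that may share reads.

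Among the kinases of the spindle, Plk1, Aurkb and Birc5 fell. Plk1, which matures centrosomes and spindle poles, had 126.6, 124.3 and 132 TPM with vehicle and 99.71, 100.2 and 100.8 TPM with MTOB. The MTOB libraries were tightly clustered below vehicle, with a log2 fold change of -0.34 (SE 0.045, limma adjusted p = 0.000144). Aurkb and Birc5, the kinase and the survivin subunit of the chromosomal passenger complex, fell by 0.28 each on the log2 scale (limma adjusted p = 0.0151 and 0.00103). Aurka, the centrosomal kinase, had a log2 fold change of -0.13 (95% interval -0.22 to -0.04, limma adjusted p = 0.0874) and did not pass; 38.6% of its exon bases overlap other genes.

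Of the 5 members of the spindle checkpoint, Mad2l1 fell, by 0.29 on the log2 scale (limma adjusted p = 0.00697), while Bub1, Bub1b, Bub3 and the kinase Ttk did not pass. Of the genes of anaphase and cohesion, Cdc20, the activator of the anaphase-promoting complex, had the smallest p of all members in this comparison. It had 168.8, 168 and 169.8 TPM with vehicle and 129.9, 127.8 and 128.2 TPM with MTOB. The libraries within a group differed by few TPM, and the log2 fold change was -0.39 (SE 0.038, limma adjusted p = 6.89e-06). Ube2c, the ubiquitin-conjugating enzyme of the same complex, fell by 0.20 on the log2 scale (limma adjusted p = 0.0242), with the call lost when 1 of 4 libraries was left out and 19% of its exon bases shared with Tnnc2. Pttg1 (securin), Espl1 (separase) and Sgo1 did not pass.

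At the kinetochore, Ndc80 and Nuf2, partners in the complex that grips microtubules, fell together with the centromeric histone Cenpa. Ndc80 had 44.48, 39.9 and 42.44 TPM with vehicle and 31.65, 28.44 and 28.94 TPM with MTOB. The groups lay far apart, at a log2 fold change of -0.50 (SE 0.063, limma adjusted p = 0.000108). Nuf2 fell by 0.33 (limma adjusted p = 0.000412) and Cenpa by 0.20 on the log2 scale (limma adjusted p = 0.0179). Their complex partners Spc24 and Spc25, and the motor Cenpe, did not pass. Cenpf, a large kinetochore protein, had 35.73, 47.6 and 65.34 TPM with vehicle and 30.54, 34.39 and 36.01 TPM with MTOB; the groups overlapped and the fall did not pass (log2 fold change -0.51, limma adjusted p = 0.0948), except when the first vehicle library was left out.

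All 6 spindle motors and microtubule proteins fell: Kif11 (the bipolar spindle motor), Kif2c (a microtubule depolymerase), Tpx2, Nusap1, Dlgap5 and Hmmr, by 0.24 to 0.51 on the log2 scale (limma adjusted p from 0.000745 to 0.01). Dlgap5 fell furthest, from 51.46, 44.62 and 50.59 TPM with vehicle to 32.84, 34.84 and 34.5 TPM with MTOB. Of the 6 cytokinesis genes, Kif20a, Racgap1, Ect2 and Prc1 fell, and Kif23 and Anln did not pass. The calls of Aurkb, Cenpa, Ect2 and Prc1 were lost without some library. Kif20a, a kinesin of the central spindle, had 116.4, 123.8 and 123.7 TPM with vehicle and 94.34, 94.44 and 92.93 TPM with MTOB. Its log2 fold change was -0.37 (SE 0.041, limma adjusted p = 3.69e-05), but 61.5% of its exon bases overlap Brd8 and Cdc23 on the other strand.

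Top2a, Mki67 and Foxm1 close the list. Top2a, the topoisomerase that untangles sister chromatids, had 330.4, 326.2 and 328.3 TPM with vehicle and 274.9, 263.6 and 265.2 TPM with MTOB. It fell without overlap, at a log2 fold change of -0.29 (SE 0.038, limma adjusted p = 0.000147). Mki67, the proliferation marker that coats mitotic chromosomes, had 209.2, 194.9 and 199.9 TPM with vehicle and 144.7, 136.4 and 148.6 TPM with MTOB. Its log2 fold change of -0.49 was among the larger falls (SE 0.090, limma adjusted p = 0.00276). Foxm1, the transcription factor of G2 genes, had 97.21, 96.67 and 93.46 TPM with vehicle and 82.15, 80.6 and 84.39 TPM with MTOB; the groups did not overlap, but the log2 fold change of -0.22 (SE 0.063) narrowly missed the threshold (limma adjusted p = 0.0525).

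In the fit of all 6 groups, the same treatment of dKO cells gave a similar picture. Of the 40 members, 21 fell and 0 rose (20 without the first MTOB library), against 3.54% of all genes that fell, with a median log2 fold change of -0.26 against -0.013 over all genes. Estimates were lower in 38 members, Bub1 and Cenpf being the exceptions. In 31 members the MTOB libraries lay below all vehicle libraries (11.5% of all genes), and none passed a fold change of 1.5 (0.476% of all genes). When only the dKO vehicle and dKO MTOB libraries were fitted, 3 members passed, and 5 without the first MTOB library. With only the wildtype vehicle and wildtype MTOB libraries fitted, 18 of the 25 wildtype members kept their call.

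Ccna2 had the smallest p in dKO cells. It had 187.7, 187.4 and 190.6 TPM with vehicle and 135.8, 150.9 and 147.2 TPM with MTOB. The MTOB libraries were all lower, at a log2 fold change of -0.38 (SE 0.035, limma adjusted p = 4.35e-06). Nuf2 fell from 85.81, 76.6 and 78.46 TPM to 59.05, 57.55 and 60.17 TPM, without overlap (log2 fold change -0.44, limma adjusted p = 3.23e-05). Racgap1, a central spindle protein needed for cytokinesis, had 117.2, 118.2 and 117.3 TPM with vehicle and 81.97, 82.12 and 83.77 TPM with MTOB. Both groups were tight, at a log2 fold change of -0.50 (SE 0.065, limma adjusted p = 0.000157). Top2a, Kif20a and Birc5 fell by 0.31, 0.30 and 0.32 on the log2 scale (limma adjusted p = 9.76e-05, 0.000261 and 0.000374).

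Mki67 and Foxm1 fell in dKO cells as well. Mki67 had 194.7, 197.4 and 191.6 TPM with vehicle and 103.6, 147.4 and 142 TPM with MTOB. Its fall was the largest of the members that passed (log2 fold change -0.58, SE 0.090, limma adjusted p = 0.000785), the lowest value being that of the library that stood apart, and leaving out each library in turn gave -0.68 to -0.42. Foxm1 had 102.6, 98.57 and 94.46 TPM with vehicle and 64, 76.62 and 77.99 TPM with MTOB. It passed here (log2 fold change -0.44, SE 0.063, limma adjusted p = 0.000465). Plk1 fell from 105.9, 114.4 and 117.1 TPM to 93.37, 96.22 and 98.38 TPM, without overlap (log2 fold change -0.23, limma adjusted p = 0.00593). Ccnb1 had 175.7, 181.6 and 185.3 TPM with vehicle and 146.6, 136.3 and 153.7 TPM with MTOB, also without overlap (log2 fold change -0.31, limma adjusted p = 0.000938). Cdk1 fell only from 312.7, 311.1 and 311.4 TPM to 274.6, 284.5 and 290.2 TPM (log2 fold change -0.14, limma adjusted p = 0.0472), and the call was lost when any 1 library was left out. Kif23, Ndc80, Nusap1 and Ube2c also lost their call without some library, while Anln, Ccnb2, Cenpe, Ect2, Espl1 and Tpx2, none of which passed, each gained one without 1 of the libraries.

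**Figure D3:**
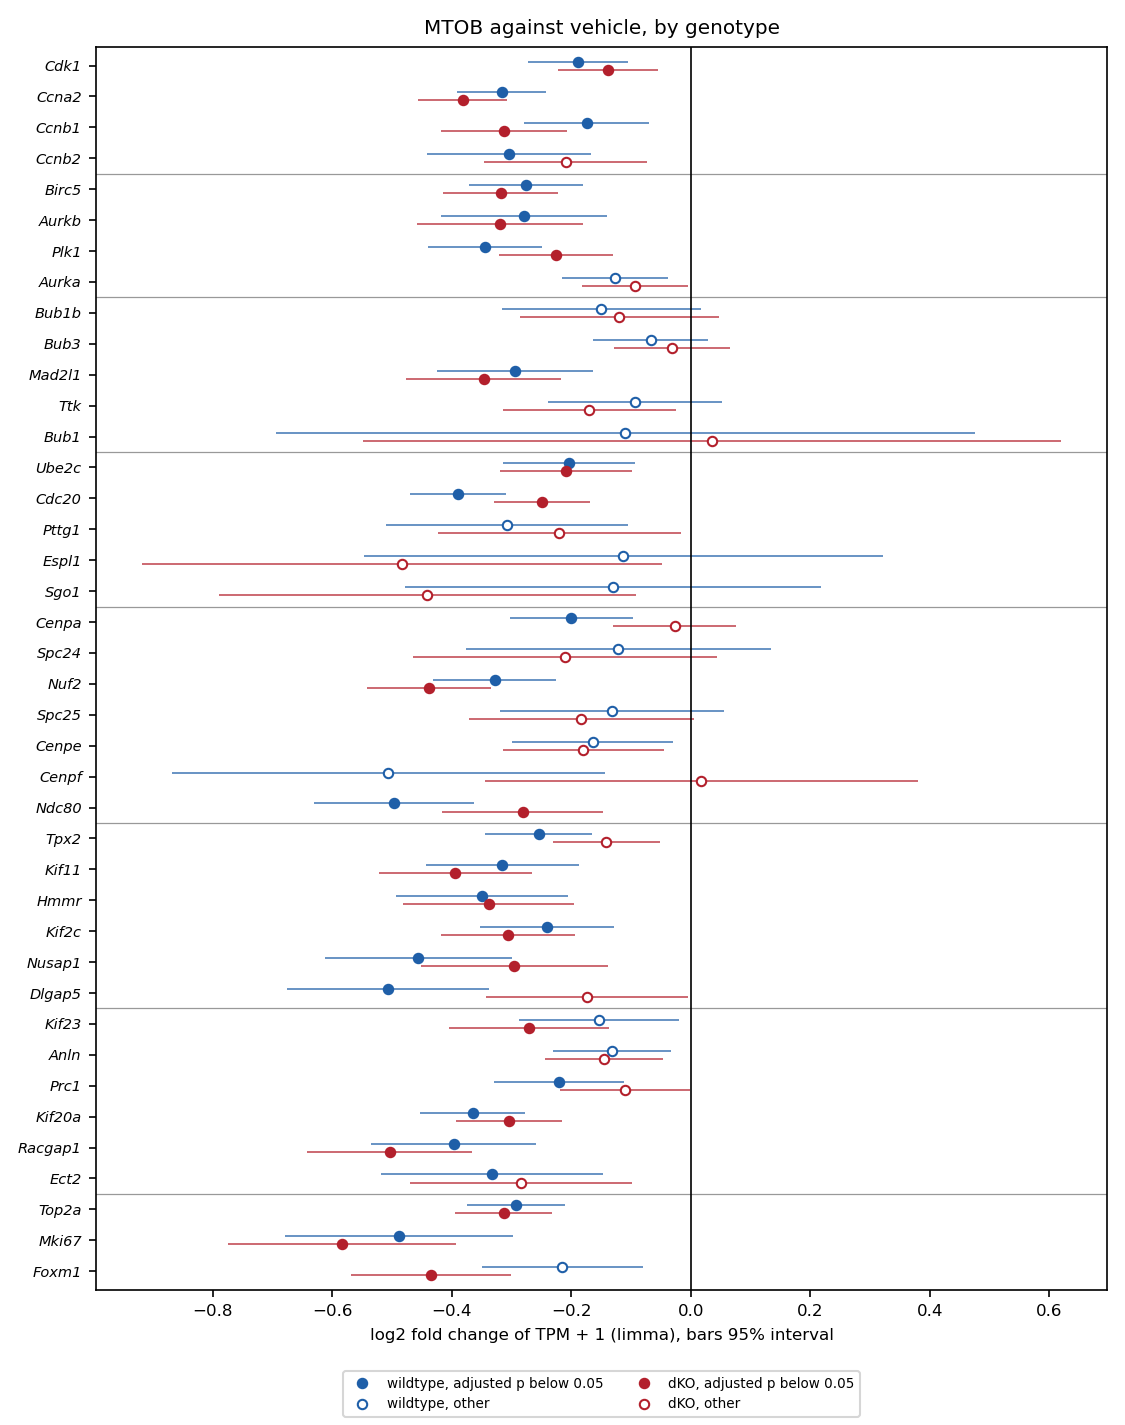
Log2 fold change of TPM + 1 with MTOB against vehicle for each member, in wildtype (blue) and dKO (red), with 95% intervals and filled points for an adjusted p below 0.05 (limma). All wildtype estimates and 38 of 40 dKO estimates are below 0, and the intervals of Bub1, Espl1, Sgo1 and Cenpf are widest.

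The genotypes used separate libraries, so their MTOB effects can be set beside each other. The common fit gave each gene the same estimate of spread in both genotypes, so the calls are not independent. Members that passed also varied less within groups. Their median coefficient of variation was 4.21% against 7.26% for the others in wildtype, and 4.26% against 7.06% in dKO. Of the members, 19 fell in both, which is 76% of the 25 in wildtype and 90.5% of the 21 in dKO. Of all genes tested 279 (1.7%) fell in both, which is 49.2% of the 567 that fell in wildtype and 48.1% of the 580 in dKO. Ccnb2, Cenpa, Dlgap5, Ect2, Prc1 and Tpx2 passed in wildtype alone, and Foxm1 and Kif23 in dKO alone. The difference of the effects itself did not pass for any member in limma (0 of 40 against 0.0916% of all genes); at an unadjusted p below 0.05 it was 6 of 40, against 6.89% of all genes. Those 6 were Dlgap5 (wildtype minus dKO -0.33, 95% interval -0.57 to -0.09, limma adjusted p = 0.553), Cdc20 (-0.14, adjusted p = 0.656), Cenpa (-0.17, adjusted p = 0.671), Foxm1 (0.22, adjusted p = 0.675), Ndc80 (-0.21, adjusted p = 0.681) and Cenpf (-0.52, adjusted p = 0.722). For 36 of the 40 members the 95% interval of the difference lay within a fold of 1.5 in either direction, and it reached further for Cenpf, Sgo1, Espl1 and Bub1. It lay within 0.3 on the log2 scale for 24 of the 40. No member's MTOB effect passed a fold of 1.5, and the median effects of -0.27 and -0.26 are themselves smaller than 0.3. Neither bound can therefore show that the genotypes respond alike. Across the 40 members the log2 fold changes of the 2 genotypes had a Pearson r of 0.304 and a Spearman rank correlation of 0.346, given as a description over genes measured in the same libraries.

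4-Cl-HIPP gave no call among the members, and their median changes lay near 0. The sum of the members differed from vehicle by -2.01% in wildtype, without overlap (5217 to 5288 against 5339 to 5388 TPM). In dKO it differed by 0.166% and the groups overlapped. These sums were not tested. In wildtype cells 0 of the 40 passed in limma (0.366% of all genes did), and 3 did at an unadjusted p below 0.05 against 8.19% of all genes. The median log2 fold change was -0.018 against 0.010 over all genes, and 4 members had groups that did not overlap (12.6% of all genes). In dKO cells 0 passed (0.501% of all genes), 3 did so unadjusted (8.47% of all genes), the median was -0.0086 against 0.0043, and 9 members did not overlap (13.7% of all genes). The 95% interval of the change lay within a fold of 1.5 for 38 of 40 members in each genotype, the others being Cenpf and Bub1. It lay within 0.3 on the log2 scale for 33 of 40 in each genotype. Both bounds are wider than the median MTOB effects of -0.27 and -0.26, so they cannot exclude changes of that size.

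Values of single members with 4-Cl-HIPP follow. Cdk1 had 352.4, 340.7 and 343.3 TPM with 4-Cl-HIPP in wildtype, overlapping vehicle (log2 fold change -0.038, limma adjusted p = 0.911), and 322.6, 318 and 332.5 TPM in dKO, slightly above vehicle (0.057, limma adjusted p = 0.763). Ccnb1 had 189, 192.7 and 196.7 TPM in wildtype (-0.074, limma adjusted p = 0.791) and 157.1, 174.4 and 170.9 TPM in dKO, all below vehicle (-0.11, limma adjusted p = 0.542). Plk1 (-0.018 in wildtype, -0.0018 in dKO), Mki67 (-0.0041 and 0.023) and Foxm1 (0.082 and 0.046) had log2 fold changes that did not pass (limma adjusted p of 0.843 or above). The smallest p in wildtype belonged to Ube2c (-0.14), Cenpf (-0.43) and Tpx2 (-0.096), with limma adjusted p = 0.48, 0.513 and 0.556. In dKO they belonged to Cdc20 (0.090), Ccnb1 and Cenpf (0.38), with limma adjusted p = 0.5, 0.542 and 0.555. The difference of the 4-Cl-HIPP effects between genotypes passed for 0 members (0% of all genes) and, unadjusted, for 4 (4.48% of all genes): Cenpf (wildtype minus dKO -0.81, limma adjusted p = 0.941), Cdc20, Bub1b and Tpx2. Both inhibitors were compared with the same vehicle libraries and their doses differ 1.5 mM to 0.25 mM, so their values stand side by side and were not tested against each other.

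Loss of CTBPs went with lower levels of part of the list before any inhibitor was given. Under vehicle, 14 of 40 members were lower in dKO cells and 0 higher, against 3.72% of all genes that were lower. The median log2 fold change was -0.16 against 0.012 over all genes, 34 estimates were lower, and 24 members did not overlap (11% of all genes). Cenpf alone passed a fold change of 1.5 (1.55% of all genes were lower by that much). Leaving out 1 library gave 8 to 10 members (8 without the third wildtype vehicle library), and fitting only these groups gave 7. This comparison shares its vehicle libraries with those of MTOB.

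Cenpa had 293.5, 291.9 and 264.4 TPM in wildtype and 219.3, 211.1 and 215.6 TPM in dKO vehicle libraries. The gap was far wider than the spread, at a log2 fold change of -0.39 (SE 0.048, limma adjusted p = 3.65e-05). Ube2c had 319.7, 325.2 and 333.7 TPM in wildtype and 235.7, 255.4 and 253.2 TPM in dKO. It too was lower in every dKO library, at -0.39 (SE 0.052, limma adjusted p = 7.52e-05). Tpx2, which carries Aurora A to the spindle, had 165.4, 172.9 and 171.1 TPM against 133.3, 143.3 and 137.2 TPM in dKO (-0.30, limma adjusted p = 0.000139). Top2a, Cdc20, Ccna2, Cdk1 and Plk1 were lower by log2 fold changes of -0.20, -0.19, -0.17, -0.19 and -0.18 (limma adjusted p = 0.00213, 0.00287, 0.00348, 0.00485 and 0.0147). Ccnb1 passed at -0.17 (limma adjusted p = 0.0416) but not when any 1 library was left out, as did Cenpe. Cenpf (-0.62, limma adjusted p = 0.0274) lost its call without any of 5 libraries, wildtype vehicle replicates 2 and 3 among them, and Anln, Dlgap5, Hmmr and Plk1 lost theirs without some library, while Nuf2, Nusap1 and Prc1 gained one. Mki67 (194.7, 197.4 and 191.6 TPM in dKO against 209.2, 194.9 and 199.9 TPM) and Foxm1 overlapped between genotypes and did not pass (-0.049 and 0.040, limma adjusted p = 0.845 and 0.81).

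The genotype difference was also measured in the treated libraries, which are separate samples of the same genotypes. All 3 comparisons take each gene's spread from the common fit, so their calls are not independent. With MTOB, 13 members were lower in dKO (4.18% of all genes), 19 did not overlap (10.1% of all genes) with Pttg1 alone higher without overlap, and the median was -0.15 against 0.0032 over all genes; without the first dKO MTOB library, 7 passed, and 4 with only these groups fitted. With 4-Cl-HIPP, 11 were lower (3.63% of all genes), 20 did not overlap (10.8% of all genes), and the median was -0.13 against 0.0046. Without the third wildtype 4-Cl-HIPP library, 7 passed. With only these groups fitted, 7 passed as well, and 5 of the 11 kept their call. Anln, Ccna2, Ccnb1, Cenpa, Cenpe, Top2a, Tpx2 and Ube2c passed in all 3 comparisons, 17 members in at least 1, and 29 had lower estimates in all 3. Over all genes tested the same counts came to 1.82% lower in all 3, 6.59% lower in at least 1 and 22.3% with lower estimates in all 3.

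Ube2c had the smallest p in both treated comparisons. With MTOB it had 269.7, 283.5 and 296.2 TPM in wildtype and 226.6, 204.1 and 213.3 TPM in dKO. All dKO libraries were lower (log2 fold change -0.40, limma adjusted p = 6.81e-05), as they were with 4-Cl-HIPP (-0.34, limma adjusted p = 0.000307). Ccna2, Ccnb1, Top2a, Nuf2 and Cenpa followed with MTOB, at -0.24, -0.30, -0.22, -0.26 and -0.22 (limma adjusted p = 0.000216, 0.000531, 0.00092, 0.00176 and 0.00622). With 4-Cl-HIPP, Top2a, Ccna2, Cenpa and Cenpe stood at -0.24, -0.20, -0.25 and -0.32 (limma adjusted p = 0.000579, 0.000961, 0.00254 and 0.00305). The remaining members that passed there were Anln, Ccnb1, Kif2c, Nuf2, Plk1 and Tpx2, at -0.21 to -0.15 (limma adjusted p from 0.0121 to 0.0312). Mki67 did not pass with MTOB or 4-Cl-HIPP (limma adjusted p = 0.399 and 0.946), nor did Foxm1 (limma adjusted p = 0.0876 and 1). Leaving out 1 library ended the call with MTOB of Anln, Cdk1, Cenpe, Hmmr, Kif2c and Ttk, and with 4-Cl-HIPP of Anln, Ccnb1, Kif2c, Nuf2, Plk1 and Tpx2. It gave a call to Bub1b, Foxm1 and Kif11 with MTOB and to Aurka and Spc24 with 4-Cl-HIPP.

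**Figure D4:**
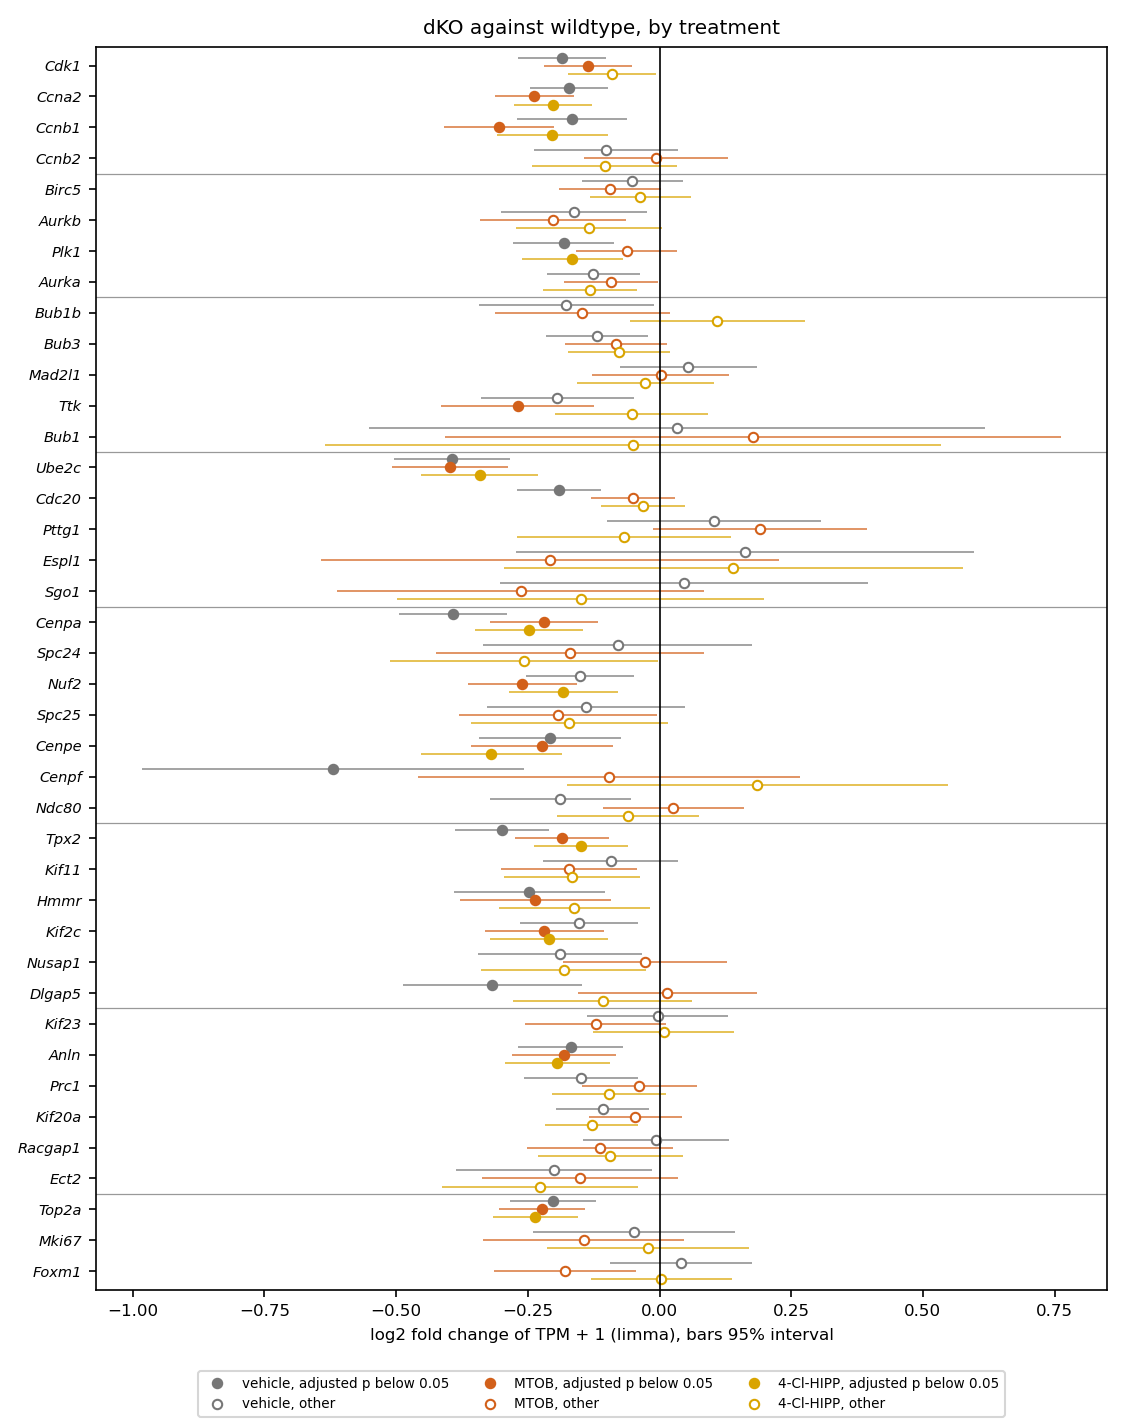
Log2 fold change of TPM + 1 in dKO against wildtype for each member, under vehicle (grey), MTOB (orange) and 4-Cl-HIPP (yellow), with 95% intervals and filled points for an adjusted p below 0.05 (limma). Cenpa, Ube2c, Tpx2, Top2a and Ccna2 lie below 0 in all 3, and Cenpf has the widest spread between treatments.

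The members that passed in no comparison with MTOB or between genotypes were Aurka, Bub1, Bub1b, Bub3, Espl1, Pttg1, Sgo1, Spc24 and Spc25. Several vary much within groups, by a coefficient of variation of 27.2% for Bub1, 19.5% for Espl1, 15.9% for Sgo1 and 10.9% for Spc24. Bub3, in contrast, was steady (3.64%): it had 163.8, 167 and 165.2 TPM in wildtype vehicle and 159.5, 158.4 and 155.4 TPM in wildtype MTOB, with a log2 fold change of -0.067 (limma adjusted p = 0.5). Reads of 52.5% of the exon bases of Spc25 and 18.7% of those of Sgo1 may belong to overlapping genes.

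Genes outside the members were followed as lists. Of 70 other mitotic genes, 27 fell and 0 rose with MTOB in wildtype, against 3.46% of all genes that fell. Their median log2 fold change was -0.20 against -0.0057 over all genes, and 15 passed without the second vehicle library. In dKO 34 fell and 0 rose, against 3.54% of all genes that fell, with a median of -0.26 against -0.013. There 26 passed without the first dKO MTOB library, and 2 when only the groups compared were fitted. Cdca3, an adaptor that promotes mitotic entry, Iqgap3 and Nek2, a centrosomal kinase, led in wildtype (-0.51, -0.41 and -0.32, limma adjusted p = 6.5e-05, 0.000279 and 0.000354), and Iqgap3, Cdca3 and the condensin subunit Smc4 in dKO (-0.53, -0.43 and -0.23, limma adjusted p = 2.8e-05, 0.000431 and 0.000902). Between genotypes under vehicle, 6 of the 70 were lower and 2 higher, against 3.72% and 7.01% of all genes (2 to 5 passing when 1 library was left out). With MTOB 14 were lower and 0 higher, against 4.18% and 6.98% of all genes. Of these, 9 were lower without the first dKO MTOB library and 1 with only these groups fitted. With 4-Cl-HIPP 7 were lower and 0 higher, against 3.63% and 6.6% of all genes (3 with only these groups fitted). Nek2 (-0.35) was lower under vehicle, with the CDK1-inhibiting kinase Pkmyt1 (0.27) higher and Bora (-0.35), an activator of PLK1, lower (limma adjusted p = 6.8e-05, 0.0163 and 0.0168). With MTOB, Nek2, Kif4 and Kif18b, a pair of mitotic kinesins, came first (-0.29, -0.43 and -0.31, limma adjusted p = 0.000501, 0.00365 and 0.00505), and with 4-Cl-HIPP Nek2, Troap and Cks2 (-0.24, -0.37 and -0.27, limma adjusted p = 0.00204, 0.00679 and 0.0123). The 4-Cl-HIPP comparisons had 0 passing in either genotype in limma, against 0.366% of all genes in wildtype and 0.501% in dKO. At an unadjusted p below 0.05 it was 2 in wildtype and 7 in dKO, against 8.19% and 8.47% of all genes.

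DNA replication genes, which peak before mitosis, gave few calls with MTOB in wildtype and more in dKO, and were higher rather than lower in dKO under vehicle. With MTOB in wildtype, 2 of 35 rose (Orc1, 0.50, and Rrm2, 0.17) and 1 fell (Pold1, -0.29), with a median of 0.00097 (limma adjusted p = 0.0186, 0.0417 and 0.00353). Of all genes tested, 3.8% rose and 3.46% fell with MTOB in wildtype, and 3.04% rose and 3.54% fell in dKO. In dKO 1 rose and 10 fell, with a median of -0.12 (8 fell without the first MTOB library, 6 passed without the second vehicle library and 2 with only these groups fitted), Mcm6, Rrm1 and Mcm7 first at -0.23, -0.29 and -0.27 (limma adjusted p = 0.0014, 0.00197 and 0.002). The difference of the MTOB effects between genotypes passed for 0 of the 35 in limma. Unadjusted it was 9, all with wildtype minus dKO above 0, against 6.89% of all genes in either direction. The estimate was above 0 in 28 of the 35, with a median of 0.12 against 0.0082 over all genes. Between genotypes under vehicle, 8 of 35 were higher in dKO and 0 lower (median 0.12), against 7.01% of all genes that were higher, led by Gins3 (0.55), Cdt1 (0.34) and Mcm6 (0.29), with limma adjusted p = 5.9e-05, 7.5e-05 and 9.2e-05. With MTOB 5 were higher and 0 lower, against 6.98% of all genes that were higher. The count was 3 without the first dKO MTOB library, 2 without the second wildtype MTOB library and 1 with only these groups fitted. With 4-Cl-HIPP 5 were higher and 1, Dbf4, was lower, against 6.6% and 3.63% of all genes. Pold1, Mcm6 and Mcm5 came first with MTOB (0.26, 0.16 and 0.10, limma adjusted p = 0.00428, 0.0104 and 0.0413), and Mcm6, Gins3 and Cdt1 with 4-Cl-HIPP (0.30, 0.53 and 0.23, limma adjusted p = 5.1e-05, 9.1e-05 and 0.00255).

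**Figure D5:**
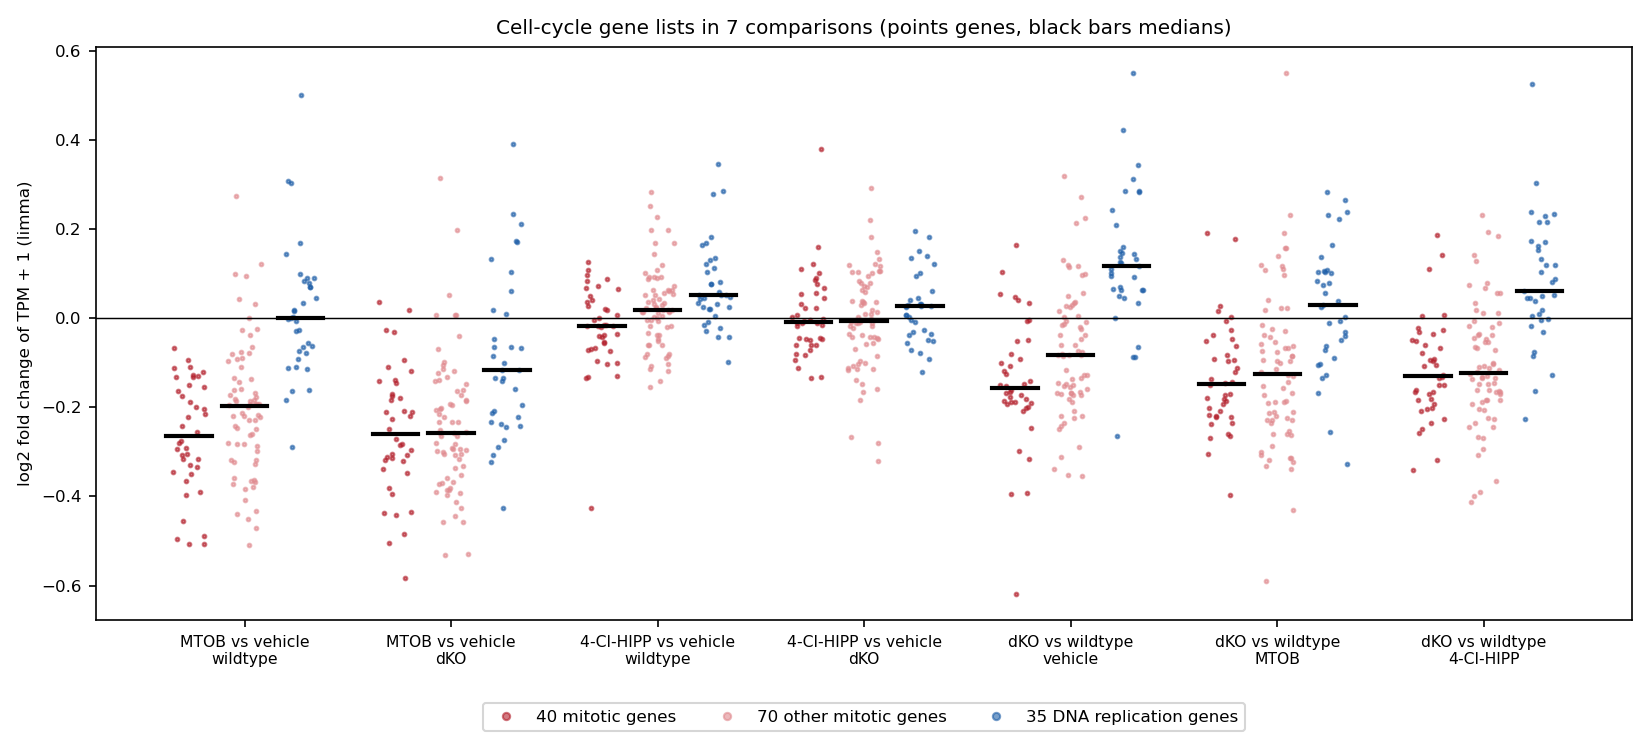
Log2 fold changes of TPM + 1 (points, 1 per gene) of the 40 mitotic members (red), 70 other mitotic genes (pink) and 35 DNA replication genes (blue) in 7 comparisons, with medians as black bars. The mitotic medians lie at -0.27 and -0.26 (members) with MTOB and near 0 with 4-Cl-HIPP, and the replication median is 0.12 in dKO against wildtype under vehicle.

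The list of DREAM, MuvB, MYB and E2F factors and that of the anaphase-promoting complex gave 0 to 3 calls per list and comparison. With MTOB 1 gene fell in each list and genotype, which is near the 3.46% and 3.54% of all genes that fell. Of 22 measured factors of the DREAM, MuvB, MYB and E2F families, Rbl2, which encodes the pocket protein p130 of DREAM, fell with MTOB in wildtype (-0.48, limma adjusted p = 0.00408) and in dKO (-0.56, limma adjusted p = 0.00147), at a mean of 8.858 TPM. Between genotypes E2f6, a repressive E2F, was lower in dKO under vehicle, MTOB and 4-Cl-HIPP (-0.68, -0.80 and -0.88, limma adjusted p = 3.8e-05, 7e-06 and 2e-06), with E2f5 lower and Rbl1 higher under vehicle, Rb1 higher with MTOB and E2f5 lower with 4-Cl-HIPP. Of 15 subunits and activators of the anaphase-promoting complex, Anapc2 fell with MTOB in wildtype (-0.47, limma adjusted p = 0.00154) and Anapc7 in dKO (-0.31, limma adjusted p = 0.0295). Between genotypes Cdc23, whose exons overlap Kif20a, was lower in dKO under vehicle (-0.34, limma adjusted p = 0.0257) and Anapc2 higher with MTOB (0.38, limma adjusted p = 0.00488).

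Of 15 p53 target genes, 2 rose and 1 fell with MTOB in wildtype, against 3.8% and 3.46% of all genes. In dKO 3 rose and 1 fell, against 3.04% and 3.54% of all genes. Cdkn1a, which encodes the CDK inhibitor p21, rose in both (0.68 and 0.60, limma adjusted p = 6.5e-05 and 0.000287) and was higher in dKO under vehicle, MTOB and 4-Cl-HIPP (0.46, 0.37 and 0.30, limma adjusted p = 0.00139, 0.00694 and 0.0279). Sesn1 fell with MTOB in both genotypes (-0.35 each, limma adjusted p = 0.00407 and 0.00435), Mdm2 rose in wildtype (0.27, limma adjusted p = 0.0445), and Bax rose in dKO (0.17, limma adjusted p = 0.00873). Between genotypes under vehicle 3 were higher and 1 lower, against 7.01% and 3.72% of all genes. Pmaip1, which encodes NOXA, was higher (0.62, limma adjusted p = 0.00103) and Bax lower (-0.27, limma adjusted p = 8.5e-05). With MTOB 4 were higher and 1 lower, against 6.98% and 4.18% of all genes. Pmaip1, Ccng1 and Bax came first (0.91, 0.29 and -0.17, limma adjusted p = 2.7e-05, 0.000916 and 0.00363). With 4-Cl-HIPP 3 were higher and 1 lower, against 6.6% and 3.63% of all genes. Bax, Ccng1 and Pmaip1 came first there (-0.30, 0.24 and 0.50, limma adjusted p = 2.7e-05, 0.00432 and 0.0057). In these 3 lists, 0 genes passed with 4-Cl-HIPP in either genotype in limma. Unadjusted it was 0 to 4 per list, against 8.19% of all genes in wildtype and 8.47% in dKO.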

How the data were processed

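RNA-seq of 18 J774.1 libraries was analysed. The authors quantified reads with Salmon 1.9.0 to Gencode M28 (GRCm39) with GC correction, imported them with tximport and deposited TPM per gene and library. The authors also deposited a signal column, the mean count normalized by DESeq2 1.44.0. It set the filter and the variance trend. Columns of the authors' own log2 fold changes and adjusted p-values for each inhibitor were not used. The labels name polyA RNA and the methods rRNA depletion, with an unstranded kit. No read totals are given, so depth and counting error are unknown.

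The 16383 of 18204 genes whose normalized count averaged over 0.222 (the lowest 10% left out) were fitted as log2(TPM + 1) by 6 group means over all libraries (limma 3.58.1, R 4.3.3), with empirical Bayes, a variance trend and Benjamini-Hochberg adjustment over all genes. Fold changes on this scale understate low genes. The procedure was tested on simulated data. Groups follow the labels. The members, lists and comparisons were chosen with earlier results of these data known. Named were Cdk1, Ccnb1, Plk1, Mki67, Foxm1, members with an adjusted p below 0.05 (the 6 smallest p where more than 12 passed, the 3 smallest where none did), those whose call changed without 1 library, the 3 highest and lowest in TPM, and up to 3 genes per other list; further members were named after their values were seen. Alternatives were a pseudocount of 0.1, no filter, a minimum mean of 1 TPM, median scaling, no variance trend, only the groups compared, a replicate block and leaving out each library. Same-numbered libraries did not deviate together (r from -0.136 to 0.0607 within a genotype), so numbers were not taken as pairs. Promoters came from RefSeq (GRCm38.p6), gene positions and overlaps from Gencode vM39 (GRCm39). Figures used matplotlib 3.10.9.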

Additional observations from a re-analysis of the deposited data

How the results depend on the processing

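No call of a member changed direction under an alternative, while genes of the other lists were not compared 1 by 1 for direction. Replication genes between genotypes with MTOB were 3 higher and 1 lower with the replicate block, against 5 and 0 in the main fit. The counts of 0 members with 4-Cl-HIPP and for the 2 differences between genotypes stayed 0 in limma under each alternative. Most changed when only the groups compared were fitted: members then numbered 3 with MTOB in dKO, and 7, 4 and 7 between genotypes under vehicle, MTOB and 4-Cl-HIPP. Other mitotic genes numbered 2 with MTOB in dKO, and 1 and 3 between genotypes with MTOB and 4-Cl-HIPP; replication genes numbered 1 with MTOB in wildtype, 2 in dKO, and 1 between genotypes with MTOB. Chosen after seeing the data, the same fit without the first dKO MTOB library gave 5 members, 1 other mitotic gene and 1 replication gene with MTOB in dKO. Such fits have fewer residual degrees of freedom and their own estimate of the spread, and which of these moved the counts was not tested. Between genotypes with MTOB, replication genes numbered 3 with pseudocount 0.1, 3 with median scaling and 1 without variance trend, and 7 with MTOB in dKO without that trend. Under median scaling, 20 members were lower between genotypes under vehicle, within 1.5 times of 14. With the replicate number as a block, members numbered 24 and 21 with MTOB in wildtype and dKO and 14, 12 and 11 between genotypes, and other mitotic genes 4 between genotypes with 4-Cl-HIPP. Leaving out 1 library at a time, members numbered 20 to 23 and 17 to 21 with MTOB in wildtype and dKO, 8 to 10 between genotypes under vehicle, 7 to 14 with MTOB (7 without dKO MTOB replicate 1) and 7 to 11 with 4-Cl-HIPP (7 without wildtype 4-Cl-HIPP replicate 3). Other mitotic genes numbered 15 to 21, 23 to 33, 2 to 5, 9 to 14 and 4 to 6 in the same order, and replication genes 1 to 3, 6 to 9, 7 to 9, 2 to 4 and 5 to 7. Depth is unknown, so low genes cannot be weighed by their counts.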
